A study of Mus musculus with 18 samples.

Results

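Nascent RNA of wild-type (WT) and *Tet2*-KO mouse embryonic stem (mES) cells was compared at the shortest of the labelling times, 10 min, when newly made RNA has had the least time to be processed or lost. The comparison rests on the 6 libraries whose labels give a time point of 10 min, 3 of WT and 3 of *Tet2*-KO, out of 18 in the series. All 6 dishes received 1 mM 5-ethynyl uridine (EU), a uridine analogue that cells build into RNA while they transcribe and that lets the new RNA be biotinylated and pulled down. Both genotypes grew in serum with leukaemia inhibitory factor and the inhibitors CHIR99021 and PD0325901, which act on GSK3 and MEK. Dishes came from 1 WT and 1 *Tet2*-/- line and were seeded at the same density, so that the genotype and every other difference between the lines cannot be told apart, and the p-values measure the spread between dishes. ERCC RNA, a set of synthetic transcripts, was added to the captured RNA in proportion to the total RNA of the dish.

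TET2 belongs to the TET dioxygenases, which oxidize 5-methylcytosine and open the way to its removal from DNA, and which also act on methylated RNA. In mES cells, DNA methylation keeps promoters of germline genes silent and marks 1 parental copy of imprinted genes. Cultures of mES cells also hold rare cells in a 2-cell-like state, with transcripts of the *Zscan4* cluster.

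Between 18019586 and 22485051 reads per library fell on genes, while ERCC transcripts took 437913 to 512186 reads in WT and 189228 to 234290 in *Tet2*-KO. Each gene was compared on a pair of scales. The first is reads per ERCC read, an amount relative to the spike-in. The second is the share of gene reads, normalized by the trimmed mean of M-values (TMM) and given as CPM, reads scaled to a common library size, which removes any factor common to all genes. Folds are log2 values of *Tet2*-KO over WT with their standard error (SE), and a gene was called at an adjusted p under 0.05 in edgeR's quasi-likelihood test. Of mES cell markers, 9 of 10 were measured and summed to 1894 to 1935 CPM in WT and 1455 to 1498 CPM in *Tet2*-KO. As shares, 3 of the 9 were higher and 5 lower, against 22.5% and 21.4% of all genes. Of these sums, *Zfp42* alone took 499 to 516 CPM in WT and 104 to 108 CPM in *Tet2*-KO. *Sox2* had no reads in any of the 6 libraries, and *Sox2ot* covers 100% of it on the same strand. Fibroblast markers summed to 25.5 to 26.0 CPM in WT and 8.30 to 11.4 CPM in *Tet2*-KO. As shares, 0 of 6 tested were higher and 5 lower, against 22.5% and 21.4% of all genes, and *Lum* had 3 reads or fewer in all 6 libraries. Primitive endoderm markers summed to 10.0 to 13.3 CPM in WT and 9.49 to 10.8 CPM in *Tet2*-KO, and trophectoderm markers to 5.10 to 6.61 and 10.5 to 16.6 CPM. Of 4 tested primitive endoderm markers 0 were higher and 0 lower as shares, and of 3 trophectoderm markers 1 was higher and 1 lower. With bulk RNA, fewer cells of a type and less RNA per cell cannot be told apart.

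Nascent RNA was more abundant relative to the spike-in in *Tet2*-KO cells, for 79% of genes tested. Protein-coding genes gave 43.0, 46.9 and 39.6 reads per ERCC read in the WT libraries and 89.5, 83.3 and 93.8 in the *Tet2*-KO libraries. The groups did not overlap, with means of 43.2 ± 3.66 and 88.9 ± 5.25 (SD, n = 3), a ratio of 2.06. The exact permutation test gave p = 0.1, two-sided, the smallest that 3 against 3 libraries allow. Scaled by each ERCC transcript on its own, for the 27 that reached 100 reads in all 6 libraries, the *Tet2*-KO level was higher by 0.35 to 1.36 on the log2 scale.

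**Figure D1:**
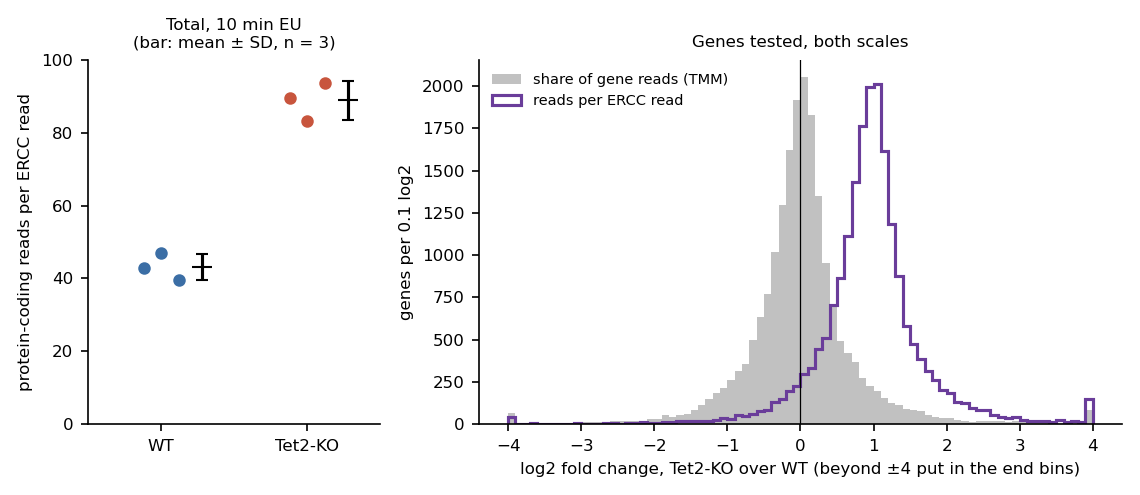
Left, protein-coding reads per ERCC read in each library of 10 min, with mean ± SD; the 3 *Tet2*-KO libraries lie between 83.3 and 93.8 and the 3 WT libraries between 39.6 and 46.9. Right, log2 fold changes of the 19910 genes tested, as reads per ERCC read (line, median 0.96) and as share of gene reads (grey, median 0.00).

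Gene by gene, 15730 of 19910 genes tested were higher per ERCC read (79%) and 418 were lower (2.1%). The median log2 fold was 0.96, with an interquartile range of 0.65 to 1.24. As shares, 4477 genes were higher (22.5%) and 4262 lower (21.4%), with a median of 0.00. All 4477 genes with a higher share were also higher per ERCC read. Of the 4262 with a lower share, 2439 were higher per ERCC read, 1405 were not called and 418 were lower. The 418 genes fell short of WT in amount as well as in share.

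The TET family came first, since *Tet2* was the targeted gene. *Tet2* lies on chromosome 3 from 133463679 to 133545139 of mm10. It took 564, 577 and 573 CPM in WT and 531, 546 and 539 CPM in *Tet2*-KO, a log2 fold of -0.08 ± 0.02 (SE; edgeR quasi-likelihood test, adjusted p = 1.07e-03). The groups did not overlap, but the transcript was made at almost the WT share in the libraries labelled *Tet2*-KO, and per ERCC read its level was higher by 0.88 ± 0.09 (log2). A count over the whole gene holds no exon-level detail, so it does not check the allele. *Tet1*, the main TET enzyme of mES cells by expression, had a higher share in all *Tet2*-KO libraries (0.21 ± 0.02, log2), whereas *Tet3* did not pass the test (0.12 ± 0.09). Among the 10 tested genes of DNA oxidation and its repair, 2 were higher and 4 lower as shares (20% and 40%, against 22.5% and 21.4% of all genes). The lower ones included *Cxxc4*, whose protein binds TET2, and the glycosylase genes *Tdg* (-0.41 ± 0.06) and *Mbd4* (-0.75 ± 0.06). *Cxxc4* (-2.10 ± 0.61) had only 21, 14 and 22 reads in WT and 3, 4 and 4 in *Tet2*-KO. Per ERCC read it did not pass (-1.13 ± 0.62), nor did its share at 20 min (-0.31) or 40 min (-0.74). *Ogt*, which encodes the TET partner O-GlcNAc transferase, was higher (0.30 ± 0.03).

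Among DNA methylation genes, 4 of 10 were higher as shares and 1 was lower (40% and 10%, against 22.5% and 21.4% of all genes). The de novo methyltransferase gene *Dnmt3b* had 40.9, 40.9 and 33.0 CPM in WT and 60.9, 61.8 and 56.3 CPM in *Tet2*-KO, and its catalytically inactive partner gene *Dnmt3l* had 34.8 to 37.2 and 20.4 to 22.6 CPM. Neither pair of groups overlapped. *Dnmt3a* was higher as well (0.26 ± 0.06), while the maintenance genes *Dnmt1* (0.06 ± 0.03) and *Uhrf1* (0.08 ± 0.04) did not pass. In the Polycomb list, 10 of 28 were higher and 8 lower (35.7% and 28.6%). Higher members included the PRC2 genes *Aebp2* (0.77 ± 0.03), *Jarid2* (0.41 ± 0.02) and *Mtf2* (0.35 ± 0.02), and lower ones the PRC1 genes *Phc1* (-0.55 ± 0.03), *Phc2* (-0.48) and *Cbx7* (-0.21 ± 0.03). Silencers of retroelements split into 9 higher and 6 lower of 21 (42.9% and 28.6%), led by *Atrx* (0.57 ± 0.02) and *Resf1* (-0.52 ± 0.03).

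Germline genes whose promoters are methylated in somatic cells formed the list with the highest median share fold. Of 20 tested, 15 were higher (75%, against 22.5% of all genes) and 2 lower, *Stra8* and *Ddx4*, with a median log2 fold of 1.02 as shares and 1.98 per ERCC read. *Fkbp6*, which encodes a co-chaperone of the piRNA pathway, is on chromosome 5 (135291704 to 135350044, minus strand). It took 9.44, 9.29 and 8.08 CPM in WT and 58.9, 56.4 and 61.1 CPM in *Tet2*-KO. Every *Tet2*-KO library was thus several times above every WT library, and the log2 fold was 2.72 ± 0.07. *Stk31* rose from 15.0 to 16.4 CPM in WT to 63.2 to 67.4 CPM in *Tet2*-KO. *Mov10l1*, the helicase gene of piRNA biogenesis, had 2.85 to 3.95 and 10.5 to 11.5 CPM, and the meiotic gene *Hormad1* had 30 to 35 and 64.9 to 68.8 CPM. None of these groups overlapped. *Mael* (0.03 ± 0.24) and *Sycp3* (0.08 ± 0.17), likewise of meiosis and piRNA biology, did not pass.

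Promoter windows of 300 bases, from 250 before to 50 after the RefSeq start (build GRCm38.p6), were at hand for 19 of the 20 germline genes, 22 windows in all, and a gene was counted where any of its windows held the letters. The letters CACGTG, an E-box that reads the same on both strands and that MGA and MAX are known to bind, stood in 11 of the 19 genes (57.9%) and in 10.8% of the 13340 tested genes with a window. The letters GCGGGA, part of the E2F motif and searched on both strands, stood in 9 of the 19 (47.4%) and in 35.3%. In the immediate early list described below, they stood in 11 of the 18 genes with a window (61.1%). The motifs can share a base where the end of one meets the start of the other. The windows of the 3 members below with a higher share, and of *Mael*, which holds the letters too and did not pass the test, are shown with CACGTG in capitals. They lie at chr5:135349995-135350294 (minus strand), chr6:49395289-49395588 (plus), chr15:88982744-88983043 (plus) and chr1:166238695-166238994 (minus), in that order.
Fkbp6: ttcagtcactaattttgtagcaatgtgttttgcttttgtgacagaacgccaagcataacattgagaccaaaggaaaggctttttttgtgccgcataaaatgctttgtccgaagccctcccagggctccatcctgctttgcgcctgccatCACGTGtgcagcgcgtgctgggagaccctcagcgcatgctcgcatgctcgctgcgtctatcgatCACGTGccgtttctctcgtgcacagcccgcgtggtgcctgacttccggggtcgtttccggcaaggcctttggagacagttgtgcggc
Stk31: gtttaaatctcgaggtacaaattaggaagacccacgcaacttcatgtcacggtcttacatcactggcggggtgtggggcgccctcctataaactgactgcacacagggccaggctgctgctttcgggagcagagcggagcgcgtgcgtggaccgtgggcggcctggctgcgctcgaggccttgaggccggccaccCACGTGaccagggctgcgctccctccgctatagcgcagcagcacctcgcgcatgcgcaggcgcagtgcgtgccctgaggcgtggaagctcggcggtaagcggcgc
Mov10l1: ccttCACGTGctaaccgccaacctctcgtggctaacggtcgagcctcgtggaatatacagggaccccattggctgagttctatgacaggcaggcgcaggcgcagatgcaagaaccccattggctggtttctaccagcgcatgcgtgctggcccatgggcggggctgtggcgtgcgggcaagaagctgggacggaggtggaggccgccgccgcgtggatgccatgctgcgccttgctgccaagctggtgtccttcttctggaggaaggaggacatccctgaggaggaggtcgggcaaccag
Mael: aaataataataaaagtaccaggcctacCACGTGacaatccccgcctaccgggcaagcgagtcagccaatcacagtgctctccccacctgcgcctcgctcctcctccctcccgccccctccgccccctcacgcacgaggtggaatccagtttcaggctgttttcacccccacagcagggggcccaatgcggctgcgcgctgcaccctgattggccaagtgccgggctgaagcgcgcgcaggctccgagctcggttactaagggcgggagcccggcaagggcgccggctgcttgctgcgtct

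*Fkbp6* carries the letters at 101 and 37 bases before its start, and *Stk31* at 55. In *Mov10l1* and *Mael* they stand further out, at 246 and 223 bases. *Mga* itself had a higher share (0.15 ± 0.02, log2) and *Pcgf6*, a gene of the same repressor complex, did as well (0.37 ± 0.08). Of the 11 germline genes with CACGTG 7 had a higher share and 1, *Ddx4*, a lower one. Of the 8 without it 7 had a higher share, among them *Dazl*, *Tex101* and *Asz1*, and 1, *Stra8*, a lower one. A match or its absence describes these letters only.

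Imprinted genes were mostly higher as well, with 17 of 28 higher (60.7%, against 22.5% of all genes), 4 lower (14.3%, against 21.4%) and a median of 0.45 as shares. *Airn*, the paternally expressed RNA that overlaps *Igf2r*, had 25, 26.3 and 24.8 CPM in WT and 80, 78.1 and 76.5 CPM in *Tet2*-KO, a log2 fold of 1.63 ± 0.05. *Igf2r* did not pass the test (-0.02 ± 0.06). *Kcnq1ot1* had 253 to 257 and 395 to 406 CPM, *Plagl1* 208 to 216 and 378 to 397 CPM, and *Peg3* 135 to 136 and 223 to 235 CPM. *Mest* had 4.68 to 6.72 and 13.9 to 15.9 CPM. The groups lay apart for all 5 of these transcripts, which are made from the paternal copy in mouse. Genes on the other strand cover 100% of *Kcnq1ot1*, so its reads are uncertain if counting ignored strand. The maternally expressed RNAs of the *Dlk1* region had lower shares, with *Meg3* at -0.21 ± 0.03, *Rian* at -0.35 ± 0.03 and *Mirg* at -0.57 ± 0.06. *Grb10* was also lower (-0.62 ± 0.07). *Rtl1*, transcribed from the other strand of that region, was slightly higher (0.27 ± 0.11, adjusted p = 0.045 in edgeR's quasi-likelihood test).

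Genes of the 2-cell-like state formed the list with the lowest median share fold. All 17 tested members of this list were lower as shares, against 21.4% of all genes, and 14 were lower per ERCC read, against 2.1%. The list's median log2 fold was -2.59 as shares, and -2.56 with *Zfp352*, whose *Tet2*-KO libraries had 1, 1 and 0 reads, set at its bound. *Zscan4c*, a zinc finger gene of telomere upkeep, lies on chromosome 7 (11005745 to 11010547). It had 12.4, 11.8 and 15.5 CPM in WT and 2.41, 2.41 and 1.74 CPM in *Tet2*-KO. *Zscan4a* had 11.1 to 14 and 1.12 to 1.78 CPM, and *Zscan4d* 5.97 to 6.33 and 0.535 to 0.951 CPM. WT and *Tet2*-KO libraries did not overlap for any of these, also per ERCC read, where *Zscan4c* fell by 1.62 ± 0.20. The deubiquitinase genes *Usp17lb*, *Usp17lc* and *Usp17ld* moved the same way. The median member had only 38 reads per library. The main filter can keep a member through the WT libraries alone, so the count of 17 depends in part on where these genes are high. Under a filter of at least 10 counts in each library of 10 min, members with fewer reads in any of them were not tested. Of those left, 6 were lower as shares and 5 per ERCC read, and none was higher. *Zscan4* and *Usp17l* genes are near-identical copies, so reads may have been split or dropped among them.

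**Figure D2:**
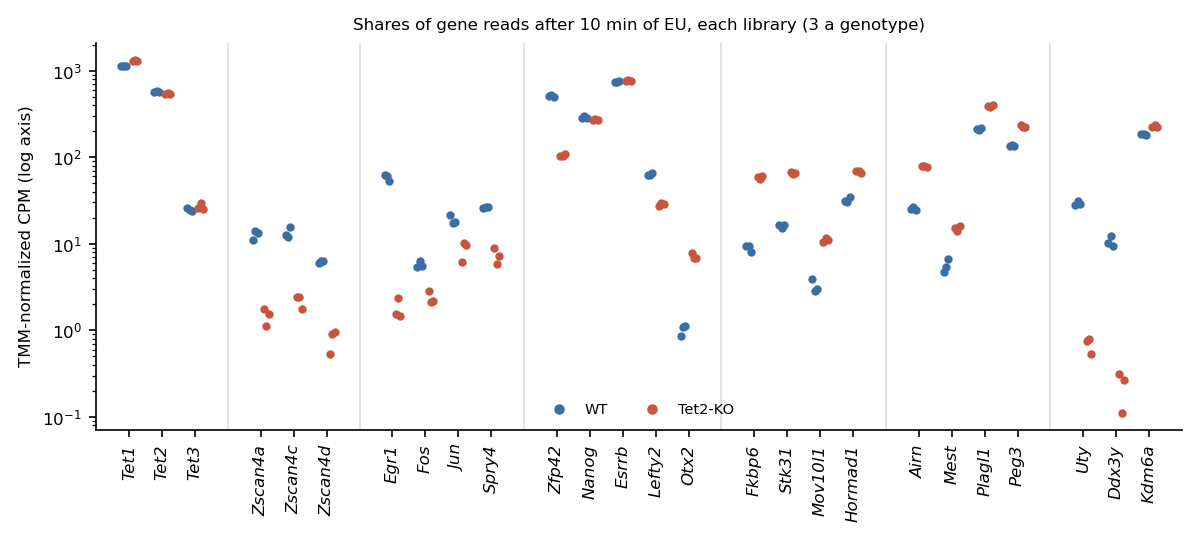
Share of gene reads (TMM-normalized CPM, log axis) of named genes in each of the 6 libraries of 10 min, grouped as TET genes, 2-cell-like genes, signalling genes, pluripotency and lineage genes, germline genes, imprinted genes and sex chromosome genes. Points are libraries; *Egr1* lies at 53.5 to 61.7 CPM in WT and 1.48 to 2.36 CPM in *Tet2*-KO, and *Fkbp6* at 8.08 to 9.44 and 56.4 to 61.1 CPM.

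Pluripotency genes differed in both directions. In the naive list 5 of 20 were higher and 10 lower as shares (25% and 50%, against 22.5% and 21.4% of all genes), with a median of -0.22. *Zfp42*, the naive marker also called *Rex1*, gave the clearest difference. It took 511, 516 and 499 CPM in WT and 104, 104 and 108 CPM in *Tet2*-KO. Per 1000 ERCC reads it had 24.9, 27.2 and 22.3 reads in WT and 10.0, 9.20 and 10.8 in *Tet2*-KO, so the groups stayed apart in amount (-1.31 ± 0.09, log2). *Klf4* (-0.59 ± 0.04), *Klf2* (-0.46 ± 0.07), *Stat3* (-0.33 ± 0.03), *Il6st* (-0.77 ± 0.03) and *Tfcp2l1* (-0.38 ± 0.02) were lower as shares and higher per ERCC read. *Esrrb* did not pass as a share (0.04 ± 0.02), while *Tbx3* (0.52 ± 0.03) and *Klf5* (0.16 ± 0.03) were higher. In the core list 5 of 14 were higher (35.7%), among them *Pou5f1* (0.15 ± 0.05) and *Sall4* (0.47 ± 0.06). The 5 lower ones (35.7%) included *Nanog* (-0.08 ± 0.03), *Tdgf1* (-0.76 ± 0.03) and *Lin28a* (-0.77 ± 0.07).

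Genes of the formative and primed states also split, with 5 of 18 higher and 6 lower as shares (27.8% and 33.3%, against 22.5% and 21.4% of all genes). *Otx2*, a transcription factor gene of the exit from naive pluripotency, had 0.858, 1.08 and 1.14 CPM in WT and 7.89, 6.79 and 6.82 CPM in *Tet2*-KO, with no overlap (2.80 ± 0.20). *Grhl2* was higher (1.34 ± 0.10). The Nodal antagonists *Lefty1* (-1.22 ± 0.15) and *Lefty2* (-1.14 ± 0.05) were lower as shares, and per ERCC read neither passed. *Fgf5* had 1, 20 and 10 reads in WT and 2, 1 and 0 in *Tet2*-KO, so the WT libraries differed among themselves and its group ranges met. Lists of other lineages were mixed. Primitive endoderm genes gave 2 higher and 4 lower of 14 (14.3% and 28.6%). Trophectoderm genes gave 3 and 3 of 12 (25% and 25%), with *Gata3* at 2.01 ± 0.16. Developmental regulators gave 3 and 5 of 17 (17.6% and 29.4%), and haematopoietic regulators 3 and 3 of 14 (21.4% and 21.4%).

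**Figure D3:**
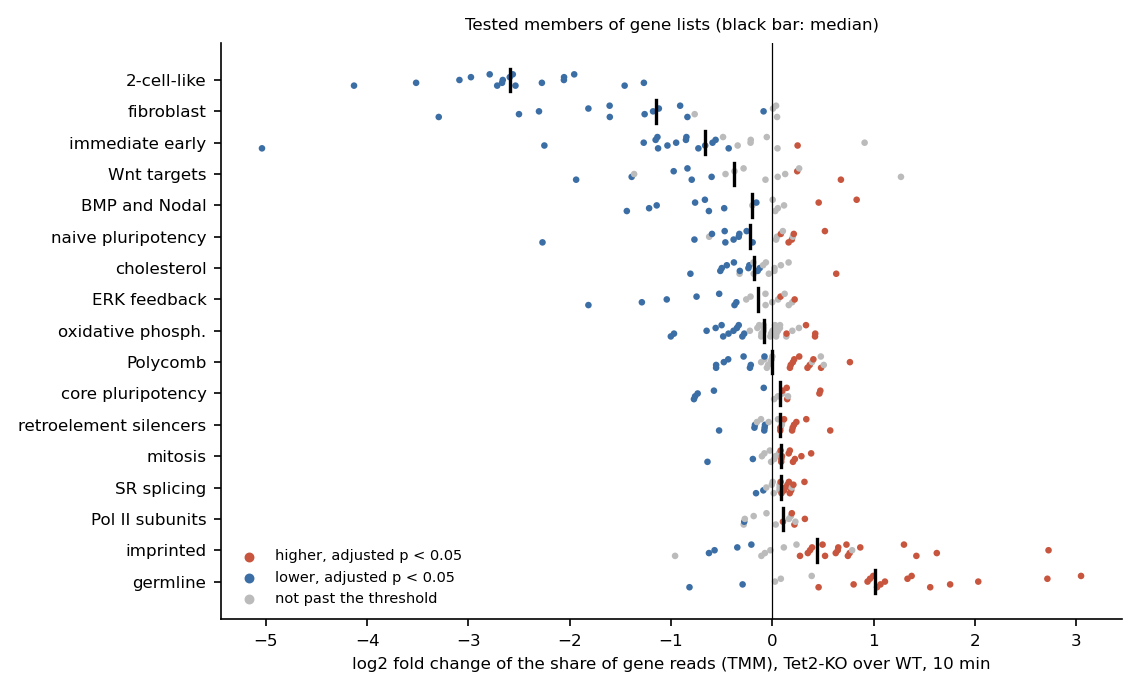
Log2 fold change of the share of gene reads (TMM), *Tet2*-KO over WT after 10 min of EU, for each tested member of 17 gene lists. Each point is a gene, coloured by the call in edgeR's quasi-likelihood test, and black bars are list medians, from -2.59 in the 2-cell-like list to 1.02 in the germline list.

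Immediate early genes, which serum and growth factors switch on within minutes, were lower in share. Of 23 tested, 15 had a lower share (65.2%, against 21.4% of all genes) and 1 a higher one, *Klf10*, with a median of -0.66. Per ERCC read 11 were higher, 10 were not called and 2 were lower, *Egr1* and *Egr2*, with a median of 0.30. Of all genes 79% were higher and 2.1% lower on that scale. *Egr1* had 61.7, 60.6 and 53.5 CPM in WT and 1.56, 2.36 and 1.48 CPM in *Tet2*-KO. These *Tet2*-KO values rest on 35, 42 and 28 reads, and the groups also stayed apart per ERCC read (-4.08 ± 0.18, log2). *Egr2* went from 0.873 to 0.951 CPM in WT to 0.0561 to 0.370 CPM in *Tet2*-KO. These are few reads, as the lowest value of WT stands for 20 reads and that of *Tet2*-KO for 1. *Fos* had 5.45, 6.31 and 5.50 CPM and 2.81, 2.13 and 2.17 CPM, and *Jun* 17.2 to 21.4 and 6.19 to 10.2 CPM. Both were lower as shares, whereas per ERCC read *Fos* (-0.31 ± 0.23) and *Jun* (-0.17 ± 0.14) did not pass. *Srf*, the gene of the serum response factor, did not pass as a share (0.05 ± 0.06). A CArG box, the element that this factor is known to bind, stood in 3 of the 18 genes of this list with a window (16.7%) and in 1.63% of tested genes with a window. The 18 genes had 24 windows, 5 of them of *Egr2*. The other tested members, *Egr1* among them, had no window and were not searched. Of the 15 genes without a CArG box 11 had a lower share, and of the 3 with it 1 had. The *Egr2* window at chr10:67537316-67537615 (plus strand) is shown because *Egr2* alone among these 3 had a lower share. The others are *Srf* and *Zfp36*. The capitals mark the CArG box, 72 bases before the start.
Egr2: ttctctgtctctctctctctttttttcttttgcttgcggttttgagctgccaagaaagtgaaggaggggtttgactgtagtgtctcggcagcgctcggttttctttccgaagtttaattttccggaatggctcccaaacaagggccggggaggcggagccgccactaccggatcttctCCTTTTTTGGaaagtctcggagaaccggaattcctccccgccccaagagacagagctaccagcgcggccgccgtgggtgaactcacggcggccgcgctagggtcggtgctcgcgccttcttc

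Feedback genes of the ERK pathway, the route that PD0325901 blocks, gave 2 higher and 7 lower of 18, that is 11.1% and 38.9%, against 22.5% and 21.4% of all genes. *Spry4* (-1.82 ± 0.09), *Spry2* (-1.04 ± 0.06) and *Dusp5* (-1.29 ± 0.10) were lower, whereas *Dusp6* (0.00 ± 0.16) and *Etv4* (0.12 ± 0.08) did not pass. Targets of Wnt signalling gave 2 higher and 6 lower of 17 (11.8% and 35.3%). *Axin2*, the common readout of this pathway, had 56.7, 55.1 and 63.7 CPM in WT and 29.9, 31.7 and 27.8 CPM in *Tet2*-KO. Its groups lay apart as shares, yet per ERCC read the fold was -0.01 ± 0.10. *Cdx1* was lower on both scales (-1.94 ± 0.13 as a share), and *Tcf7l1*, the gene of a repressor of Wnt targets, was higher (0.68 ± 0.02). Targets of BMP and Nodal signalling gave 2 higher, *Smad6* and *Smad7*, and 8 lower of 15 (53.3%), among them *Bmp4* (-0.66 ± 0.19). Of the p53 list 5 were higher and 8 lower of 20 (25% and 40%). Heat shock genes gave 8 higher and 3 lower of 17 (47.1% and 17.6%), and the lower ones were all HSP70 genes: *Hspa1b*, *Hspa1a* and *Hspa8*. Integrated stress genes gave 5 and 4 of 21, and interferon and NF-kB genes 4 and 5 of 21.

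Lists of transcription and growth had median share folds near 0, from -0.03 for the machinery of RNA polymerases I and III to 0.11 for RNA polymerase II subunits, and their counts stand against 22.5% of all genes higher and 21.4% lower. Of 13 RNA polymerase II subunits, 4 had a higher and 1 a lower share, with *Polr2a* at 0.19 ± 0.03, and all 13 were higher per ERCC read, against 79% of all genes. Pausing and elongation factors gave 13 higher and 4 lower of 32 (40.6% and 12.5%), and the highest of these was *Mllt3* (0.74 ± 0.03). Mediator gave 9 and 4 of 32, with *Med12l* at 1.09 ± 0.04. Splicing regulators of the SR group gave 10 and 2 of 20 (50% and 10%), and mitotic genes 10 and 2 of 19 (52.6% and 10.5%), among which *Ccnb1* was lower (-0.64 ± 0.05) and *Nusap1* higher (0.38 ± 0.05). Termination and exosome genes gave 9 and 9 of 33, replication licensing 6 and 4 of 21, and the machinery of RNA polymerases I and III 8 and 7 of 28. Writers and readers of RNA 5-methylcytosine gave 2 and 2 of 11, and genes of methyl-CpG binding and of the PR-DUB deubiquitinase complex 6 and 3 of 14.

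Among metabolic lists, cholesterol synthesis gave 1 higher and 10 lower of 21 as shares, that is 4.76% and 47.6%, against 22.5% and 21.4% of all genes. Nuclear genes of oxidative phosphorylation gave 4 and 12 of 37 (10.8% and 32.4%), and *Sdhc* of complex II had 33.7 to 38.9 CPM in WT and 16.4 to 20.5 CPM in *Tet2*-KO. Of 15 mitochondrial genes 1 was higher and 6 were lower, and mitochondrial reads made up 2.30% to 2.33% of gene reads in WT and 1.88% to 1.91% in *Tet2*-KO. Glycolysis gave 7 higher and 9 lower of 21 gene IDs. Outside a stretch of chromosome 6 described below, 7 of 16 were higher and 4 lower, with a median of 0.07. All these counts are of shares. Per ERCC read, 19 of 21 cholesterol genes and 35 of 37 nuclear genes of oxidative phosphorylation were higher. So were 13 of 15 mitochondrial and 18 of 21 glycolysis genes, against 79% of all genes, and 0 were lower in each list.

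Transcripts that stay in the nucleus were among the most counted. *Malat1* had the log2 fold -0.33 ± 0.01 and *Neat1*, the scaffold of paraspeckles, -0.85 ± 0.03, both as shares. Per ERCC read *Neat1* did not pass (0.11). Other paraspeckle genes gave the list 4 higher and 3 lower of 12 (33.3% and 25%, against 22.5% and 21.4% of all genes). Small nuclear RNAs gave 2 and 2 of 11 (18.2% and 18.2%). *Ncl*, the gene of nucleolin, was the most counted protein-coding gene and had a higher share (0.22 ± 0.01), as had *Kat6b* (0.31 ± 0.01) and *Hsp90aa1* (0.38 ± 0.02). *Gm26917*, an annotated lincRNA with the most reads of all, did not pass (-0.05 ± 0.07) and its groups overlapped.

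The genes with the lowest and highest share folds were chosen among abundant genes whose groups lay apart on both scales. Of all genes tested, abundant or not, 23.2% had groups apart on both scales and a higher share. For 14.5% the groups lay apart on both scales with a lower share, whatever the direction per ERCC read. *Ubd*, a ubiquitin-like gene on chromosome 17 (37193892 to 37196095), had 525, 578 and 529 reads in WT and 0, 1 and 0 in *Tet2*-KO. Its share was at least 153-fold lower and its level per ERCC read at least 79.1-fold lower, against 3 reads per library. *Iqch* had 20.1 to 22.4 CPM in WT and 1.53 to 1.79 CPM in *Tet2*-KO, and genes on the other strand cover 81.3% of it. *Sox11*, a neural transcription factor gene, had 13.7 to 16.1 and 1.35 to 1.78 CPM, and *Trh*, which encodes thyrotropin-releasing hormone, 59.6 to 65.6 and 6.87 to 7.31 CPM. *5730507C01Rik*, *Mfap3l* and *Mep1b* had log2 folds from -2.99 to -2.21. At the other end, *Ttll11*, a tubulin glutamylase gene on chromosome 2 (35751241 to 35979913), had 5.67, 4.45 and 3.97 CPM in WT and 117, 105 and 111 CPM in *Tet2*-KO. No other protein-coding gene that met the rule had a higher fold than *Ttll11* (4.56 ± 0.08). *Prex2*, a gene of a Rac exchange factor, went from 36.9 to 41.1 CPM in WT to 328 to 345 CPM in *Tet2*-KO. *Grb14* had 3.32 to 4.28 and 37.2 to 38.5 CPM, and *Tpte* 0.349 to 1.08 and 15.3 to 17.7 CPM. *Kctd16*, *Nckap5*, *Nlrp4a*, *St6galnac4* and *Gm10260* had folds from 2.76 to 3.77.

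Of 4752 genes that are not protein-coding, 807 were higher (17%) and 701 lower (14.8%). Their median was 24.5 reads per library, against 332.5 for the 15158 protein-coding genes, of which 24.2% were higher and 23.5% lower. *Gm30228*, a lincRNA on chromosome 10 (27744884 to 27809624), had 4, 3 and 5 reads in WT and 1007, 877 and 845 in *Tet2*-KO. *Gm15459*, a pseudogene on chromosome 5 (5781615 to 5783555), had 4.19 to 6.44 CPM in WT and 291 to 307 CPM in *Tet2*-KO. *Gm44067*, *Gm44748* and *Gm36816* had log2 folds from 5.54 to 6.94. At the low end the pseudogene *Gm10499* had 683, 521 and 582 reads and 4, 1 and 1 reads, and the lincRNA *2410018L13Rik* 121 to 123 and 5.79 to 6.62 CPM. Genes on the other strand wholly cover *Gm26858*, *Gm36816*, *Gm44067*, *Gm15459* and *Gm10260*, and they cover 83.8% of *Gm44748*. The reads of these genes are therefore uncertain if counting ignored strand. In all, 26 genes had 3 reads or fewer in each *Tet2*-KO library and at least 20 in each WT library, 10 of them protein-coding, among them *Olig1*, *Olig2* and *Apoa2*. The converse held for 16 genes, 6 of them protein-coding, among them *Naip5*, *Pkhd1l1* and *C8a*.

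Several differences followed chromosomes. Of 11 tested genes of the Y chromosome 8 had a lower share, and the chromosome took 0.330% to 0.354% of gene reads in WT and 0.237% to 0.257% in *Tet2*-KO. *Uty* had 27.8, 30.9 and 28.8 CPM in WT and 0.758, 0.785 and 0.528 CPM in *Tet2*-KO, and *Ddx3y* 9.52 to 12.1 and 0.112 to 0.312 CPM. *Eif2s3y* had 3 reads or fewer in each *Tet2*-KO library, and its share was at least 32.0-fold lower. Of 14 tested genes of X inactivation and the Y chromosome, 3 were higher and 8 lower (21.4% and 57.1%, against 22.5% and 21.4% of all genes). The X-linked counterpart of *Uty*, *Kdm6a*, was higher (0.31 ± 0.03), and *Xist* had 1.47 to 1.75 CPM in WT and 0.624 to 1.74 in *Tet2*-KO. Its antisense RNA *Tsix* (-1.14 ± 0.09) and *Ftx* (-1.12 ± 0.10) were lower.

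On chromosome 6, genes between 80 and 140 Mb had a median share fold of -0.46. Of these 520 genes, 296 were lower (56.9%, against 21.4% of all genes) and 30 higher (5.77%, against 22.5%). The other 490 tested genes of chromosome 6 had a median of 0.08, with 92 lower (18.8%) and 151 higher (30.8%). The stretch took 3.05% to 3.08% of gene reads in WT and 2.24% to 2.26% in *Tet2*-KO. Similarly, beyond 100 Mb on chromosome 13, 70 of 121 genes were lower (57.9%) and 11 higher (9.09%), against the same percentages of all genes. The median there was -0.58, and the share of gene reads was 1.04% to 1.05% in WT and 0.651% to 0.662% in *Tet2*-KO. Both stretches were chosen after their values were seen, among 261 windows of 10 Mb, and their medians at 20 and 40 min lay between -0.47 and -0.43. In all, 14 windows had a median below -0.2 and 9 above 0.2. Outside both stretches the lowest was chromosome 12 from 20 to 30 Mb, at -0.50, with 36 of 72 genes lower (50%) and 21 higher (29.2%). *Nanog*, *Tet3*, *Mbd4*, *Phc1* and *Trh* lie in the chromosome 6 stretch. Without its members, the naive list kept 10 lower of 19 and the germline list 14 higher of 19. Chromosome 19 took 4.30% to 4.32% and 3.91% to 3.94% of gene reads, but without *Malat1* and *Neat1* 2.70% to 2.74% and 2.71% to 2.74%. The part of copy number in these differences was not tested.

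**Figure D4:**
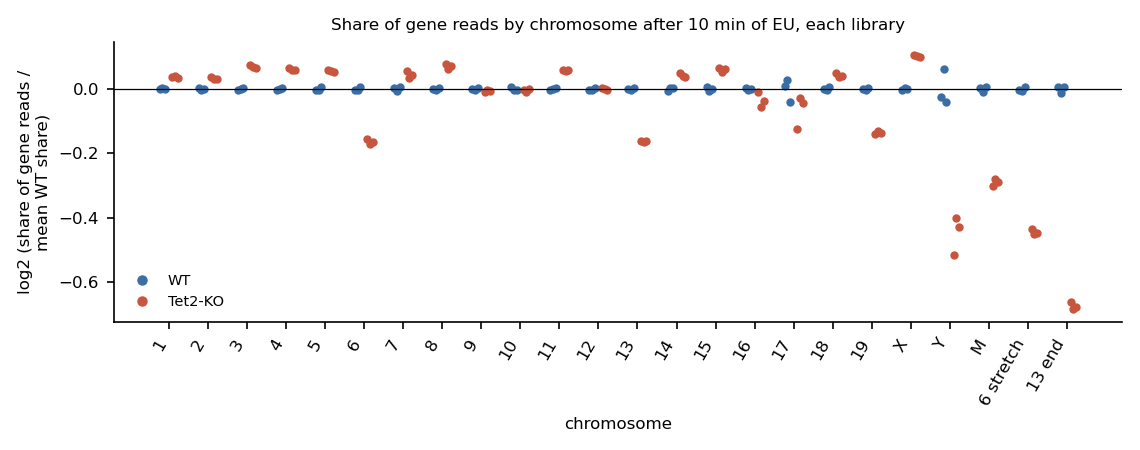
Log2 of the share of gene reads on each chromosome over the mean WT share, for each library of 10 min, and of the stretches on chromosomes 6 and 13. WT libraries scatter around 0; in *Tet2*-KO the Y chromosome, the mitochondrial genome (M), chromosomes 6, 13 and 19 and both stretches lie below it.

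Long genes were called higher more often. Across quintiles of protein-coding genes by span, from the shortest to the longest, the percentage with a higher share was 13.3, 16.4, 23.1, 29.4 and 38.9, while the percentage with a lower share was 20.1, 23.0, 25.2, 24.7 and 24.5. The median fold went from -0.05 to 0.08. The median number of reads per library also went from 95 to 932.5, so the power to call grew along with span. Its part in these percentages was not tested.

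Most share differences at 10 min had the same sign at 20 and 40 min. Of the 4477 genes with a higher share, 84.3% were above 0 at both later times and 54.9% were called higher at both, and 134 were called lower at either. Of the 4262 with a lower share, 85.2% were below 0 at both and 51.0% were called lower at both, and 99 were called higher at either. The background at 20 min was 20.3% of all genes with a higher and 18.2% with a lower share, and at 40 min it was 19.7% and 18.6%. The difference itself was tested as the fold at 10 min minus the mean fold at 20 and 40 min. As shares, 944 genes had a higher fold at 10 min (4.74%) and 572 a lower one (2.87%). Per ERCC read 8595 genes had a higher fold (43.2%) and 92 a lower one (0.462%), with a median difference of 0.40.

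Among abundant protein-coding genes, those with the most negative difference were *Tnc*, *Inhba*, *Egr1*, *Thbs1*, *Col12a1* and *Cd44*, in that order. Apart from *Egr1*, an immediate early gene, these encode secreted, matrix or adhesion proteins and a TGF-beta ligand subunit. *Tnc* had 22.1, 25.6 and 24.5 CPM in WT and 6.73, 7.24 and 4.54 CPM in *Tet2*-KO at 10 min (-1.96 ± 0.14), against log2 folds of 1.23 and -0.24 after 20 and 40 min. *Thbs1* had -1.38 ± 0.13 at 10 min and 1.40 at 20 min. Genes on the other strand cover 77.0% of *Tnc* and 90.1% of *Inhba*, whose reads are uncertain if counting ignored strand. *Egr1* differed in size and not in sign, with -5.04 ± 0.14 after the 10 min pulse against -2.75 and -2.82 after the longer ones. In the fibroblast list 12 of 16 were lower in share at 10 min (75%, against 21.4% of all genes) and none higher. Of the 16, 9 had a lower share fold than at the later times, against 2.87% of all genes, and 1 a higher one. Fibroblast markers summed over the libraries of 20 min to 8.51 to 9.29 CPM in WT and 14.2 to 15.3 CPM in *Tet2*-KO, and at 40 min to 7.92 to 8.61 and 7.96 to 9.65 CPM. The WT libraries of 10 min thus stood above all others, and the part of this in the *Tnc*, *Thbs1* and *Col12a1* values was not tested. In the 2-cell-like list and the germline list no member had a share fold that differed by time, and in the immediate early list 1 had, *Egr1*. Per ERCC read the fold of *Zscan4c* was higher at 10 min by 0.68, that of *Usp17la* by 1.49 and that of *Stra8* by 0.43, against 43.2% of all genes with a higher fold.

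With the most positive difference came the replication-dependent histone genes *Hist1h4f* and *Hist1h3c*, with *Gm10961*, *Lactbl1*, *Sgcz* and *Rtl1*. *Hist1h4f* had 7.86, 5.97 and 4.98 CPM in WT and 10.5, 13.2 and 11.9 CPM in *Tet2*-KO at 10 min, a log2 fold of 0.92 ± 0.14, against 0.13 and -0.33 at the later times. Of 62 tested *Hist1h* to *Hist4h* genes, a family chosen after these values were seen, 15 had a higher share fold at 10 min, against 4.74% of all genes, and none a lower one, with a median difference of 0.32. At 10 min itself 17 were higher as shares (27.4%, against 22.5% of all genes) and 5 lower. *Sgcz* was lower at each time, least so at 10 min (-1.33 ± 0.12, against -1.94 and -2.58). Histone genes within a class are near-identical, so their reads may have been shared.

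**Figure D5:**
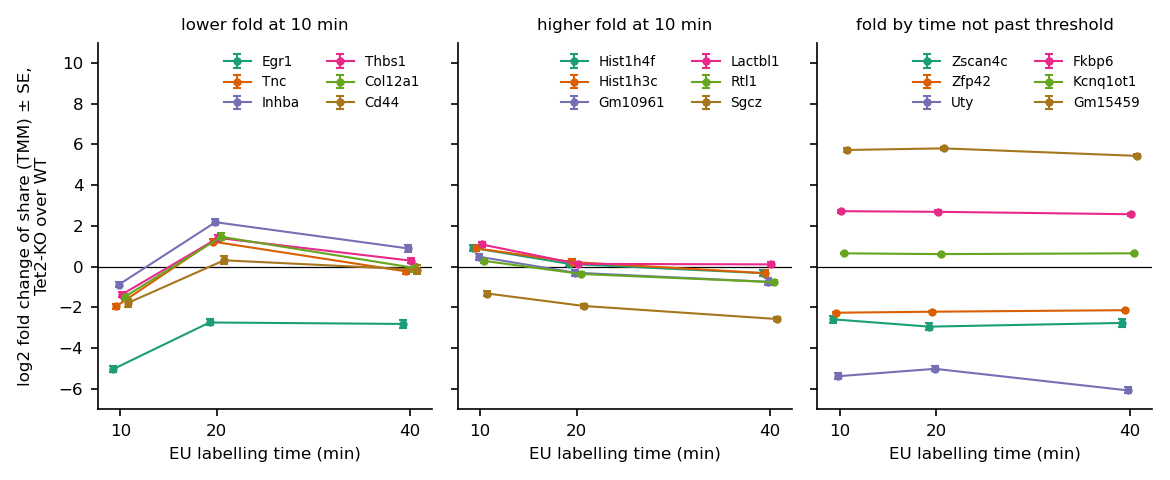
Log2 fold change of the share of gene reads ± SE, *Tet2*-KO over WT, after 10, 20 and 40 min of EU, for 6 genes with a lower fold at 10 min, 6 with a higher fold, and 6 for which the difference by time did not pass the test. *Tnc* goes from -1.96 at 10 min to 1.23 at 20 min, while *Fkbp6* stays between 2.57 and 2.72.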

How the data were processed

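Nascent RNA was labelled with EU in WT and *Tet2*-KO mES cells for 10, 20 or 40 min, with 3 dishes per genotype and time. After depletion of ribosomal RNA, the labelled RNA was biotinylated by click chemistry, captured on streptavidin, mixed with ERCC RNA and made into libraries with the SMARTer Stranded Pico kit. Per the study's methods and the submitters' processing notes, reads were trimmed with Trimmomatic 0.39, aligned with HISAT2 2.2.1 to mm10 with the ERCC sequences and counted with HTSeq 0.12.4. The authors deposited raw counts per gene and ERCC transcript for each library, with nothing pooled. The feature type, strand setting and overlap mode of the counting are not given in the sources used here. Rows that name no gene stayed out of library sizes. In the libraries of 10 min, 15.7% to 16.7% of reads had no feature, 2.32% to 2.39% were ambiguous and 5.56% to 5.83% were not uniquely placed. The libraries carried no stated molecular identifiers, so counts of reads are not counts of molecules.

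Counts of all 18 libraries were fitted in 6 groups with the quasi-likelihood test of edgeR 4.0.16 in R 4.3.3, which shares one estimate of the spread. The filterByExpr step with a minimum count of 10 kept 19910 of 54446 genes. Library sizes were either ERCC read totals or TMM-normalized gene read totals, and p-values were adjusted by Benjamini-Hochberg over all genes kept, with a threshold of 0.05. The SE is the log2 fold divided by the square root of F. Folds of genes with at most 3 reads in each library of 1 genotype are given as bounds against 3 reads per library. For the total level, the 6 libraries were permuted exactly. Scripts were tested on simulated data.

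Genes were named by rule: the TET genes, the 10 highest and 10 lowest protein-coding genes that averaged over 3 log2 CPM, were called on both scales and had groups apart, 5 and 5 other genes likewise, the extremes and the most counted gene of each of 41 lists, the 8 genes with the most reads, and the 6 highest and 6 lowest differences by time. Further list members, and the genes near 0 in 1 genotype, were named after their values were seen. The comparison and the lists were chosen with earlier results of these data known. Alternatives were other scalings, DESeq2 1.42.0, the 6 libraries alone, other filters, a replicate block and leaving out each library. Some genes that the rule names are not reported here.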

Additional observations from a re-analysis of the deposited data

Results flagged for a closer look

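The differences given here are log2 share folds at 10 min minus the mean of the folds at 20 and 40 min, and each passed edgeR's quasi-likelihood test of that difference among the genes chosen by the naming rule. Below 0 were *Tnc* (-2.46), *Inhba* (-2.42), *Egr1* (-2.26), *Thbs1* (-2.22), *Col12a1* (-2.19), *Cd44* (-1.87) and *Iqch* (-1.55), the last of which was lower at each time and lowest at 10 min. Above 0 were the histone genes *Hist1h4f* (1.01) and *Hist1h3c* (0.95), together with *Gm10961* (1.01), *Lactbl1* (0.97), *Sgcz* (0.93), *Rtl1* (0.84) and *Ttll11* (0.52). *Ttll11* was higher in *Tet2*-KO at each time. Small differences passed for abundant genes: *Kat6b* (0.21), *Hsp90aa1* (0.14), *Tet1* (0.13), *Tet2* (0.11) and *Ncl* (0.079). For *Tet2* the fold itself was -0.08 at 10 min and -0.19 at both later times.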

How the results depend on the processing

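Each count over all genes tested stayed within 1.5 times its value under every alternative run except 1: with at least 10 counts in each library of 10 min, 222 genes were lower per ERCC read, against 418, from 16153 genes tested. Counts of list members called moved further in 40 instances per ERCC read and 65 as shares, against 1108 and 1083 that did not. As shares, higher replication licensing genes numbered 3 to 8, lower retroelement silencers 2 to 7 and higher integrated stress genes 2 to 5. Over the other scalings, filters, tests and sample choices, genes with a higher share numbered 3424 to 4706 and those with a lower share 3472 to 4434. With DESeq2 they numbered 4338 and 4108, and with the 6 libraries of 10 min alone 3424 and 3472. Without 1 library at a time, 14975 to 15794 genes were higher and 354 to 437 lower per ERCC read, and 4126 to 4330 were higher and 3739 to 4260 lower as shares. Folds that were higher at 10 min then numbered 800 to 1021 as shares and 6757 to 9860 per ERCC read, lower ones 383 to 590 and 80 to 112, and the ratio of total levels was 1.98 to 2.15. The replicate numbers did not pair the libraries, with correlations of same-numbered deviations of -0.04, 0.09 and -0.11. With replicate number as a block, 15701 genes were higher and 410 lower per ERCC read, and 4484 and 4244 as shares. Under the same block 979 and 568 folds differed by time as shares and 8411 and 90 per ERCC read, and the ratio of total levels was 2.06.

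The following genes turned sign under an alternative, none of which was called on that scale, and the cause was not tested. Per ERCC read, the slope of the linear fit of ERCC reads gave *Hnf4a* 0.0539, *Nnat* 0.0679 and *Sdhc* 0.0265, TMM over ERCC transcripts gave *Inhba* -0.0353, and leaving out the 5 most abundant ERCC transcripts gave *Inhba* -0.0038. Without 1 library at a time, the log2 fold per ERCC read was -0.106 to 0.0476 for *Hnf4a*, -0.157 to 0.173 for *Nnat*, -0.145 to 0.0685 for *Sdhc*, -0.0099 to 0.157 for *Inhba*, -0.703 to 0.0244 for *Usp17la*, -0.631 to 0.377 for *Rny3*, -0.389 to 0.0069 for *Ikzf1*, -0.336 to 0.15 for *Mxd4* and -0.307 to 0.248 for *Eno2*. The fold of the share then was -0.128 to 0.0633 for *Gm26917*, -0.136 to 0.276 for *Loxl1* and -0.0039 to 0.257 for *mt-Nd4l*.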
